A study of Mus musculus with 4 samples.

Results

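Expression of 9 genes that drive or mark the endothelial-mesenchymal transition (*Snai1*, *Snai2*, *Twist1*, *Zeb1*, *Zeb2*, *Sox9*, *Msx1*, *Msx2* and *Cdh11*) was followed across the cells of the E14.5 mouse ventricle. They are the 9 rows of the 4 count matrices, of 32285 rows in all, that carry these symbols, and they were chosen by name. Single cells were sequenced in droplets from 2 control libraries (*Tie2*Cre; *Ets1* fl/+) and 2 *Ets1* eKO libraries (*Tie2*Cre; *Ets1* fl/fl). The authors looked for cell types and mechanisms behind the thin compact myocardium of ventricular non-compaction, after endothelial deletion of the transcription factor Ets1. Each library pooled 3 untreated ventricles from C57BL/6 embryos of either sex, which were not genotyped for sex. The labels do not divide the 4 libraries by batch, which does not show that they were prepared together. Both groups carry *Tie2*Cre, which is active in endothelium, endocardium and blood cells, and the controls carry 1 floxed *Ets1* allele, so they are not wild type. The groups are small, and since each library is a pool, p-values measure the spread between 2 pools per group and not between embryos.

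In the embryonic heart, endocardial cells of the atrioventricular canal and outflow tract leave the endocardial sheet and become the mesenchyme of the cushions, from which valves and septa form. BMP, TGF-beta and Notch signals induce this transition, Snail and Zeb factors repress endothelial junction genes, and Twist1, Msx and Sox9 act in the migrating and maturing mesenchyme. Working ventricular (mural) endocardium lines the trabeculae and normally keeps its endothelial state, whereas the fibroblasts marked by *Tcf21* arise mainly from the epicardium by a related transition.

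UMI counts were summed per library within classes of cells that were named by marker genes and are called "-like". The 5 classes studied held 1085 valve endocardial (vEndo-like), 3478 mural endocardial (mEndo-like), 4511 cushion mesenchyme-like, 2546 *Tcf21* fibroblast-like and 805 epicardial-like cells of 38003 cells kept. None of the 9 genes was used to cluster cells or to name a cluster. The vEndo-like class includes a cluster of 296 cells, led by *Fbln5*, that was placed there by its mean marker level. In it 5 of the 6 vEndo markers were detected in at least 10% of the cells. The leading genes of this cluster hold 2 of the 7 arterial wall markers (*Fbln5* and *Eln*) and 0 of the 6 vEndo markers. Its vEndo markers summed to 563 to 629 CPM per library, against 1481 to 1844 CPM in the other 789 cells, so a number of results of the class are also given without it. Per library, 76931208 to 124140739 UMIs were counted and 6816 to 12316 cells kept, and the libraries shared at most 0.44% of barcodes. *Ets1* eKO replicate 2 was the shallowest library, with a median of 5328.5 UMIs per cell against 8250.5 to 8715 in the other 3. Values are given as CPM, the gene's UMIs per 1000000 UMIs of the class in that library. *Ets1* itself was at 224 and 217 CPM in the vEndo-like cells of the controls and at 92.0 and 81.2 CPM in *Ets1* eKO (log2 change -1.31, adjusted p = 0.00459 by edgeR's quasi-likelihood test). In mEndo-like cells *Ets1* fell from 295 and 273 CPM to 129 and 98.0 CPM (-1.27, adjusted p = 0.00112). Cushion mesenchyme-like cells had 82.2 and 72.7 CPM in the control libraries against 45.8 and 39.7 CPM with *Ets1* eKO, which missed the threshold (-0.77, adjusted p = 0.0646) but passed it in 8 of 12 alternative analyses. *Tcf21* fibroblast-like cells had 118 and 110 against 73.5 and 74.0 CPM (-0.55, adjusted p = 0.319), and epicardial-like cells 8.79 and 14.6 against 16.7 and 15.4 CPM (0.56, adjusted p = 0.793). The part of *Ets1* that the floxed allele removes is not given in the sources used here, and 3' tags outside it would not report the deletion.

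Across the classes, the 9 genes fell into 3 patterns of expression. *Snai1*, *Snai2*, *Twist1*, *Sox9*, *Msx1* and *Msx2* were highest in cushion mesenchyme-like cells, *Zeb1* and *Cdh11* were highest in mEndo-like cells, and *Zeb2* was highest in immune-like cells. Cushion mesenchyme-like cells made up 11.9% of all cells and held 76.5% of all *Twist1* UMIs, 73.7% of *Sox9*, 64.4% of *Msx1*, 61.2% of *Snai1* and 46.7% of *Snai2*. They held 36.6% of *Msx2* UMIs, of which cardiomyocyte-like cells, 42.5% of all cells, held 59.5%. mEndo-like cells, 9.15% of all cells, held 46.4% of *Cdh11* UMIs. After thinning each cell to 2000 UMIs, cushion mesenchyme-like cells had UMIs of 2.71 to 2.74 of the 9 genes on average, mEndo-like cells of 1.78 to 1.98 and vEndo-like cells of 1.30 to 1.44, each as a range over the 4 libraries. These levels are a description, since the classes are built from genes that vary with the 9.

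**Figure D1:**
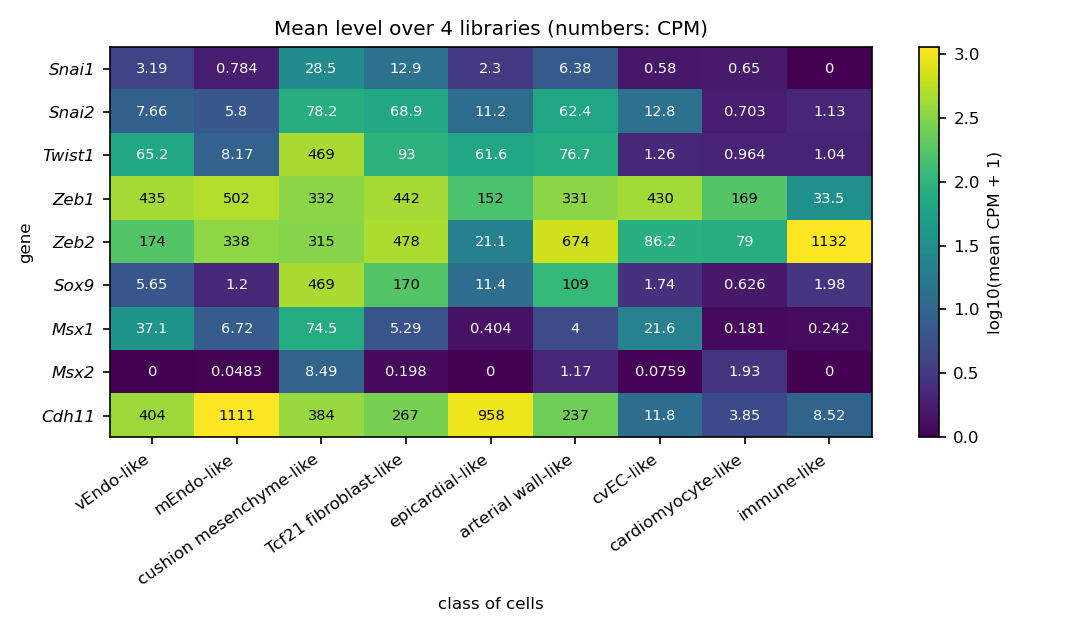
Mean level of each gene in 9 classes of cells, over the 4 libraries. Rows are genes, columns are classes, the number in each field is the mean CPM and the colour is log10(mean CPM + 1). *Twist1* and *Sox9* each average 469 CPM in cushion mesenchyme-like cells, and *Cdh11* reaches 1111 CPM in mEndo-like and 958 CPM in epicardial-like cells.

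The promoters of *Msx1*, *Twist1* and *Snai1*, around which the comparisons in mEndo-like and cushion mesenchyme-like cells turn, are shown because Ets1 binds DNA at a GGAA core and Snail and Zeb factors bind E-boxes of the form CAGGTG. Of the 9 genes, 5 were matched by symbol in the promoter table (*Snai1*, *Twist1*, *Msx1*, *Msx2*, *Zeb2*); *Snai2*, *Zeb1*, *Sox9* and *Cdh11* had no entry. The sequences are the 250 bases before the transcription start, from RefSeq on GRCm38.p6, in the direction of the gene. Capitals mark both motifs on either strand (the core also reads TTCC, and the E-box also reads CACCTG). *Snai1* lies on the plus strand (chr2:167537945-167538194), *Twist1* on the plus strand (chr12:33957421-33957670) and *Msx1* on the minus strand (chr5:37824586-37824835).
Msx1: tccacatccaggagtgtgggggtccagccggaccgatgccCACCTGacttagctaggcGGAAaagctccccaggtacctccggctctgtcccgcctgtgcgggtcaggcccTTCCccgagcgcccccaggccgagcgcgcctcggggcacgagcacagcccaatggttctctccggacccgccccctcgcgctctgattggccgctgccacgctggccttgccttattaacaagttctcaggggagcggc
Twist1: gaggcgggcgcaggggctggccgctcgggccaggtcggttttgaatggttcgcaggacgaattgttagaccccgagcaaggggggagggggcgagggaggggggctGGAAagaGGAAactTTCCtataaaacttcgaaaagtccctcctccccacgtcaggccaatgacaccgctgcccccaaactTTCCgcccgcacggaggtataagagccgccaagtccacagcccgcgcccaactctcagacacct
Snai1: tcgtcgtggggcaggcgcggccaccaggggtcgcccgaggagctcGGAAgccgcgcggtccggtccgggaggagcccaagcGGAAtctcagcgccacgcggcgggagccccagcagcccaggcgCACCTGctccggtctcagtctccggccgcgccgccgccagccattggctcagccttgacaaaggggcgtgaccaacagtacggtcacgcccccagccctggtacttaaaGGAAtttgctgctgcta
The *Msx1* promoter holds 2 GGAA or TTCC matches and 1 E-box, the *Twist1* promoter 4 and 0, and the *Snai1* promoter 3 and 1. Of 32851 promoters of this length, 93.5% hold GGAA or TTCC, with a median of 3 matches, and 17.2% hold the E-box. The longer ETS motif CCGGAA, which contains GGAA, is in 12.0% of promoters on either strand and in none of these 3. The *Msx2* promoter and the 4 listed *Zeb2* promoters hold 2 to 6 GGAA or TTCC matches, no CCGGAA and no E-box. The 3 printed regions are 62.4% to 70.0% G and C, against a median of 52.4% over all promoters. A match only says that these letters are present.

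Between *Ets1* eKO and control, 1 of the 9 genes changed past the threshold within a class: *Msx1* rose in mEndo-like cells. There 6 of the 9 passed the filter on low counts and 1 of the 6 was called, against 3.41% of the 12682 genes tested. In cushion mesenchyme-like cells all 9 were tested and none was called, against 0.304% of 13490 genes. In vEndo-like cells 7 were tested and none was called, against 0.371% of 10787 genes. In *Tcf21* fibroblast-like cells 8 were tested and none was called, where 0.0% of all 12670 genes were, and in epicardial-like cells 6 were tested and none was called, against 0.0301% of 9975 genes. At an unadjusted p under 0.05, 3 of the 9 genes passed in cushion mesenchyme-like cells (12.1% of all genes there), 2 of 6 in mEndo-like (20.8%) and 1 of 7 in vEndo-like cells (10.9%), the last being *Sox9*, which passed the filter only through the controls, where it was higher. In *Tcf21* fibroblast-like and epicardial-like cells 0 did (7.56% and 6.72%). DESeq2 called 0 of them in each of the 5 classes, beside 3.0% of all genes in mEndo-like, 0.882% in cushion mesenchyme-like, 0.368% in vEndo-like, 0.0353% in *Tcf21* fibroblast-like and 0.0% in epicardial-like cells. Without the *Fbln5*-led cluster 5 of the 9 were tested in vEndo-like cells and 0 called, beside 0.999% of all genes.

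Groups of 2 libraries separate often without any test. The pair of *Ets1* eKO libraries was entirely above or entirely below the control pair for 6 of 9 genes in cushion mesenchyme-like cells (45.4% of all genes there), 4 of 6 tested in mEndo-like (51.9%), 3 of 7 in vEndo-like (42.3%), 3 of 8 in *Tcf21* fibroblast-like (41.0%) and 3 of 6 in epicardial-like cells (38.5%). The counts rest on 6 to 9 genes a class and carry no test. They include *Sox9* in vEndo-like and *Snai2* in epicardial-like cells, for which only the group with the higher level had both libraries at the level the filter asks for. With the *Fbln5*-led cluster left out, 3 of the 5 genes tested in vEndo-like cells separated, beside 44.2% of all genes, and these were *Zeb1*, *Zeb2* and *Cdh11* in place of *Zeb1*, *Sox9* and *Msx1*. The plot of values by library shows the counts for the whole classes.

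**Figure D2:**
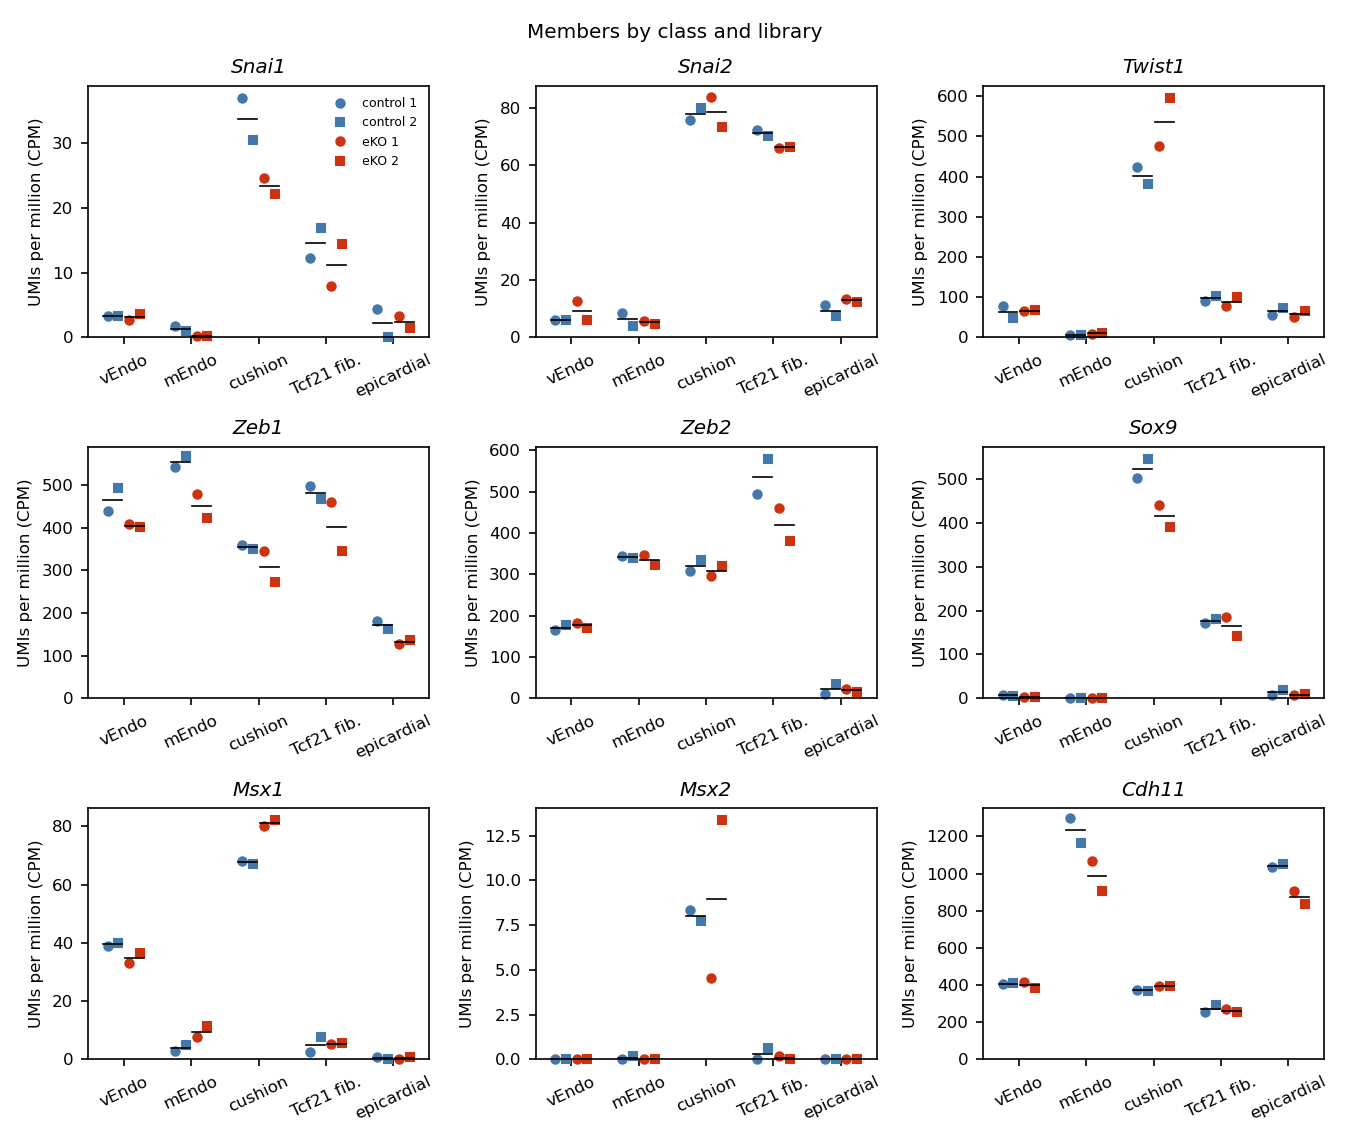
Level of each gene in 5 classes, by library, in CPM on linear axes that start at 0. Blue marks are the 2 control libraries, red marks the 2 *Ets1* eKO libraries, circles replicate 1, squares replicate 2 and bars the group means. *Msx1* in mEndo-like cells has both *Ets1* eKO libraries above both controls, at levels far under those of vEndo-like and cushion mesenchyme-like cells.

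*Snai1* (ENSMUSG00000042821, chr2:167538195-167542814, plus strand) encodes the zinc finger repressor Snail, which represses *Cdh5* and other junction genes early in the transition. It was at 28.5 ± 6.59 CPM (SD, n = 4) in cushion mesenchyme-like cells and at 12.9 ± 3.77 in *Tcf21* fibroblast-like cells, with every library of the former above every library of the latter. Arterial wall-like (6.38 ± 4.45), vEndo-like (3.19 ± 0.401), epicardial-like (2.30 ± 1.95) and mEndo-like cells (0.784 ± 0.744 CPM) followed with overlapping neighbours. Immune-like cells had 0 UMIs.

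*Snai1* in cushion mesenchyme-like cells was at 36.9 and 30.4 CPM in the control libraries against 24.5 and 22.1 CPM with *Ets1* eKO. Both *Ets1* eKO libraries were below both controls, but the change of -0.44 ± 0.16 (SE, log2) did not pass the adjustment (unadjusted p = 0.0234, adjusted p = 0.32, edgeR). At 2000 UMIs the share of cells with a UMI was 7.41% and 6.82% against 5.11% and 4.10%, with at most 0.237% in cardiomyocyte-like cells, whose median depth before thinning was 7819.5 to 13211 UMIs. At 1000 UMIs the groups overlapped, at 4.40% and 2.72% against 3.47% and 2.55%. Without thinning the shares were 20.6% and 17.8% against 14.3% and 7.61%. Across 12 alternatives the change lay between -0.60 and -0.25 and none was called. The log2 ratio of the plain CPM means was -0.53, and with the 6 sub-clusters of the class held at fixed shares it was -0.50.

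Within each endocardial class *Snai1* was too low to test. vEndo-like cells had 7 and 6 UMIs in the control libraries (3.26 and 3.28 CPM) and 5 and 6 with *Ets1* eKO (2.63 and 3.58 CPM), which overlap. mEndo-like cells had 12 and 5 UMIs in the control libraries against 1 and 2 with *Ets1* eKO, without overlap and with too few UMIs for a test within the class. In 1 model over both classes the effect in vEndo-like minus that in mEndo-like cells was 2.49 ± 1.11 (SE, log2) and did not pass the adjustment (unadjusted p = 0.0368, adjusted p = 0.39, edgeR). *Snai1* passed the filter of that model only through vEndo-like libraries, where it was higher, so this value is given as a description. In *Tcf21* fibroblast-like cells, at 12.2 and 16.9 against 8.0 and 14.4 CPM, the groups overlapped (log2 change -0.32 ± 0.28 SE, adjusted p = 0.785), and the sign turned without *Ets1* eKO replicate 1 (0.09).

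*Snai2* (ENSMUSG00000022676, chr16:14705852-14709385, plus strand), the Slug repressor, was close in the 3 mesenchymal classes, at 78.2 ± 4.58 CPM (SD, n = 4) in cushion mesenchyme-like, 68.9 ± 3.05 in *Tcf21* fibroblast-like and 62.4 ± 8.27 CPM in arterial wall-like cells. The next class, cvEC-like cells, was 4.88-fold lower than the last of these, at 12.8 ± 2.89 CPM, without overlap. vEndo-like and mEndo-like cells had 7.66 ± 3.30 and 5.81 ± 2.03 CPM. *Snai2* in cushion mesenchyme-like cells was at 75.7 and 80.1 CPM in the control libraries against 83.7 and 73.5 CPM with *Ets1* eKO (0.10 ± 0.12 SE, log2, adjusted p = 0.791). In vEndo-like cells, *Ets1* eKO replicate 1 had 12.6 CPM and the other 3 libraries 5.97 to 6.05 CPM (0.68 ± 0.44 SE, adjusted p = 0.601). Leaving out the *Fbln5*-led cluster gave 6.21 and 6.10 against 13.3 and 6.57 CPM, which do not overlap but rest on 11, 8, 18 and 8 UMIs, and it was not tested.

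*Zeb1* (ENSMUSG00000024238, chr18:5591860-5775467, plus strand) and *Zeb2* (ENSMUSG00000026872, chr2:44983632-45117395, minus strand) encode zinc finger and homeobox repressors of junction genes. *Zeb1* was high in endothelial and mesenchymal classes alike, from 502 ± 65.1 CPM (SD, n = 4) in mEndo-like, 442 ± 67.2 in *Tcf21* fibroblast-like, 435 ± 42.0 in vEndo-like and 430.3 ± 64.2 in cvEC-like to 332 ± 39.8 CPM in cushion mesenchyme-like cells, with overlap between each of these and the next. Epicardial-like cells had 152 ± 25.1 and immune-like cells 33.5 ± 21.2 CPM. Both genes overlap others in the annotation, *Zeb2* among them the antisense *Zeb2os*.

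*Zeb1* was lower in both *Ets1* eKO libraries than in both controls in all 5 classes. By class, 38.5% to 51.9% of all genes separated in either direction, and genes doing so in all 5 were not counted. *Zeb1* passed the test in none of the classes. In mEndo-like cells it was at 542 and 567 CPM in the control libraries against 479 and 422 CPM with *Ets1* eKO (log2 change -0.25 ± 0.14 SE, adjusted p = 0.341, edgeR). In vEndo-like cells it was at 438 and 494 against 409 and 401 CPM (-0.16 ± 0.15 SE, adjusted p = 0.742). Cushion mesenchyme-like cells had 360.2 and 349.9 against 344 and 273 CPM, *Tcf21* fibroblast-like cells 498 and 466 against 459.6 and 344 CPM and epicardial-like cells 182 and 163 against 127 and 136 CPM. *Ets1* eKO replicate 2, the shallowest library, had the lowest *Zeb1* level in 4 of the 5 classes, with epicardial-like cells as the exception. The classes share the same 4 libraries and are not independent of each other. Without that library the sign turned in both mesenchymal classes: the change was -0.12 in cushion mesenchyme-like cells (adjusted p = 0.784) and moved to 0.0471, and it was -0.18 in *Tcf21* fibroblast-like cells (0.797) and moved to 0.00486.

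*Zeb2* was at 1132 ± 134 CPM (SD, n = 4) in immune-like and 674 ± 182 CPM in arterial wall-like cells. It was at 478 ± 82.4 in *Tcf21* fibroblast-like, 338 ± 11.8 in mEndo-like, 315 ± 16.2 in cushion mesenchyme-like, 174 ± 7.54 in vEndo-like and 21.1 ± 10.7 CPM in epicardial-like cells. mEndo-like cells were thus above vEndo-like cells in every library. Within the vEndo-like class the parts differed: the *Fbln5*-led cluster had 223 and 226 against 317 and 296 CPM, and the other cells 152 and 158 against 128 and 125 CPM (-0.24 ± 0.16 SE, adjusted p = 0.532), where the change over the whole class was 0.0887 (adjusted p = 0.87). In mEndo-like cells *Zeb2* was at 345 and 339 CPM in the control libraries against 348 and 321 CPM with *Ets1* eKO (0.02 ± 0.13 SE, log2, adjusted p = 0.955). Its level in *Tcf21* fibroblast-like cells was 494 and 579 against 459.6 and 380.3 CPM, without overlap and without passing the test (-0.27 ± 0.16 SE, adjusted p = 0.726).

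*Twist1* (ENSMUSG00000035799, chr12:33957671-33959829, plus strand) encodes a basic helix-loop-helix factor that supports proliferation and migration of cushion mesenchyme. Its level was 469 ± 93.0 CPM (SD, n = 4) in cushion mesenchyme-like cells and 93.0 ± 11.9 in *Tcf21* fibroblast-like cells, which is 5.04-fold lower with no overlap. *Tcf21* fibroblast-like, arterial wall-like (76.7 ± 30.4), vEndo-like (65.2 ± 12.4) and epicardial-like cells (61.6 ± 10.5 CPM) overlapped step by step, although vEndo-like cells without the *Fbln5*-led cluster (60.4 ± 9.94 CPM) lay below every *Tcf21* fibroblast-like library. mEndo-like cells were lower, at 8.17 ± 2.53 CPM, and the other classes averaged at most 1.26 CPM.

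In cushion mesenchyme-like cells *Twist1* was at 423 and 381 CPM in the control libraries against 476 and 596 CPM with *Ets1* eKO. All *Ets1* eKO values were above the controls, and the *Ets1* eKO libraries differed more from each other than the controls did. The log2 change of 0.49 ± 0.16 (SE) did not pass the adjustment (unadjusted p = 0.0116, adjusted p = 0.251, edgeR), and over 12 alternatives the adjusted p ranged from 0.0641 to 0.907. In *Tcf21* fibroblast-like cells, at 91.1 and 104 against 77.1 and 100.4 CPM, the groups overlapped (-0.05 ± 0.15 SE, adjusted p = 0.938).

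The difference between these effects, cushion mesenchyme-like minus *Tcf21* fibroblast-like, was 0.53 ± 0.12 (SE, log2) for *Twist1*, with an adjusted p of 0.0466 over 13735 genes, of which 0.801% were called. Of the 9 genes it alone was called by edgeR with the reported settings (*Msx1* was called when cells were classed by their own markers), and 3 had an unadjusted p under 0.05, beside 9.25% of all genes. It was lost without control replicate 2 (0.38, adjusted p = 0.0609) and without either *Ets1* eKO library (0.52 and 0.362 leaving out replicate 1, 0.60 and 0.0789 leaving out replicate 2). Over 6 alternatives the adjusted p ranged from 9.4e-05 to 0.362.

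The make-up of the cushion mesenchyme-like class differed between the groups, and *Twist1* differed between its sub-clusters. *Abi3bp*-led cells made up 35.1% and 42.7% of the class in controls, as its largest sub-cluster, and 25.3% and 24.96% in *Ets1* eKO, where *Egfem1*-led cells were the largest at 26.7% and 28.2%. *Gabrb1*-led cells made up 16.6% and 15.3% of control cells against 24.1% and 22.9% in *Ets1* eKO. *Twist1* averaged 329 CPM in *Abi3bp*-led and 622 CPM in *Gabrb1*-led cells. The log2 ratio of its plain CPM means was 0.41, and with sub-clusters at fixed shares it was 0.27. Without correction across libraries before clustering its log2 change was 0.10. That setting also changed the class, which then held 2824 cells in place of 4511, as an *Abi3bp*-led cluster of 1507 cells and a *Car3*-led one of 813 were left unnamed for leading genes of another list. The part of these cells and of the correction in the values of that setting cannot be told apart.

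Within sub-clusters, *Twist1* in *Abi3bp*-led cells was at 261 and 220 CPM in the control libraries against 345 and 491 CPM with *Ets1* eKO, and in proliferating *Cenpf*-led cells at 421 and 383 against 495 and 587 CPM. In these 2 of 6 sub-clusters both *Ets1* eKO libraries were above both controls. In *Gabrb1*-led cells the groups overlapped, at 586 and 680 against 549 and 673 CPM, and so they did in *Egfem1*-led, *Asic2*-led and *Lrp1b*-led cells. The summed level of 7 arterial wall and mural cell markers in the class was 1388 and 1386 CPM in the control libraries against 895 and 937 CPM with *Ets1* eKO, with 5 of 7 lower in both *Ets1* eKO libraries. Of all genes tested in the class, 45.4% separated between the groups in either direction. The part of the sub-cluster and marker differences in the *Twist1* values was not tested beyond the fixed shares.

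At 2000 UMIs per cell, 50.2% and 45.9% of cushion mesenchyme-like control cells and 56.4% and 61.0% of *Ets1* eKO cells had a *Twist1* UMI. The exact 95% intervals were 47.3% to 53.1% and 43.1% to 48.7% in controls and 53.1% to 59.7% and 58.0% to 64.0% in *Ets1* eKO; they cover counting error only, not the spread between libraries. Cardiomyocyte-like cells had shares of 0.0878% to 0.237% at the same depth. At 1000 UMIs the *Twist1* shares overlapped between the groups, at 34.1% and 27.7% against 32.4% and 42.9%. Thinning to 2000 UMIs left out 8 and 4 shallower control cells and 15 and 132 *Ets1* eKO cells. Without thinning the shares were 82.2%, 75.3%, 81.9% and 77.1%, at median depths of 6375.5, 6434, 5866 and 3458 UMIs.

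In mEndo-like cells *Twist1* was at 7.04 and 5.79 CPM in the control libraries against 8.17 and 11.7 CPM with *Ets1* eKO, both above the controls. The change of 0.68 ± 0.27 (SE, log2) did not pass the adjustment (unadjusted p = 0.0275, adjusted p = 0.183, edgeR). The summed mesenchymal and *Tcf21* fibroblast markers were also higher in *Ets1* eKO in these cells, as given below for *Msx1*. Their part in the *Twist1* values was not tested. The share of cells with a UMI at 2000 UMIs was 0.927% and 0.951% against 2.82% and 2.45%, and without thinning 5.40% and 4.94% against 6.72% and 5.61%. In vEndo-like cells, at 78.2 and 48.6 against 64.7 and 69.3 CPM, the groups overlapped (0.10 ± 0.22 SE, adjusted p = 0.905).

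*Sox9* (ENSMUSG00000000567, chr11:112782224-112787760, plus strand) encodes an HMG box factor needed for expansion of cushion mesenchyme and for its cartilage-like matrix. It was at 469 ± 67.5 CPM (SD, n = 4) in cushion mesenchyme-like, 170.4 ± 20.2 in *Tcf21* fibroblast-like and 109 ± 13.2 in arterial wall-like cells, each step without overlap. Epicardial-like cells had 11.4 ± 5.73, vEndo-like cells 5.65 ± 2.60 and mEndo-like cells 1.20 ± 0.143 CPM. The vEndo-like level was 3.18 ± 1.28 CPM (SD, n = 4) without the *Fbln5*-led cluster, where it lay below every epicardial-like library and overlapped cvEC-like cells (1.74 ± 0.286 CPM), while the whole class overlapped the former and lay above the latter. The share of cells with a *Sox9* UMI at 2000 UMIs was 49.6% to 60.4% in cushion mesenchyme-like, 0.485% to 1.25% in vEndo-like and 0.0923% to 0.173% in cardiomyocyte-like cells. Without thinning it was 65.3% to 85.4% in cushion mesenchyme-like and 1.32% to 3.70% in vEndo-like cells. With that cluster left out, the vEndo-like shares were 0.0% to 0.709% at 2000 UMIs, from at most 1 cell a library, and 1.12% to 2.10% without thinning.

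In cushion mesenchyme-like cells *Sox9* was at 501 and 545 CPM in the control libraries against 439.8 and 391 CPM with *Ets1* eKO. Both *Ets1* eKO libraries were below both controls, and the change of -0.25 ± 0.14 (SE, log2) did not pass the test (adjusted p = 0.51, edgeR). Its sign turned without correction across libraries (0.13, adjusted p = 0.865), where an *Abi3bp*-led cluster was also left out of the class. *Abi3bp*-led cells, a smaller share of the class in *Ets1* eKO, had the highest mean *Sox9* level, at 722 and 659 CPM in the control libraries against 586 and 517 CPM with *Ets1* eKO. *Cenpf*-led cells had 359 and 409.9 against 271 and 258 CPM, and in the other 4 sub-clusters the groups overlapped.

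In vEndo-like cells *Sox9* rested on 19 and 12 UMIs in controls and 8 and 5 in *Ets1* eKO, or 8.85 and 6.56 against 4.21 and 2.99 CPM. The filter asks for 5.36 CPM there in 2 libraries, which the controls reached and the *Ets1* eKO libraries did not, so the gene entered the test through the group where it was higher. Its change of -1.05 ± 0.46 (SE, log2, adjusted p = 0.435, edgeR) is given as a description. Of these UMIs, 13 and 6 against 6 and 1 were in the *Fbln5*-led cluster, and the other cells had 6 and 6 against 2 and 4, too few for a test. The 7 arterial wall and mural cell markers summed in that cluster to 881 and 2370 CPM in the control libraries against 259 and 177 CPM with *Ets1* eKO. In the other vEndo-like cells they summed to 184 and 246 against 174 and 187 CPM, which overlap. The part of these markers in the *Sox9* values was not tested.

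*Msx1* (ENSMUSG00000048450, chr5:37820485-37824583, minus strand, GRCm38) encodes a homeobox repressor that acts with Msx2 downstream of BMP signals in cushion endocardium and mesenchyme. Its level was 74.5 ± 7.84 CPM (SD, n = 4 libraries of both groups) in cushion mesenchyme-like cells, 37.1 ± 3.07 in vEndo-like, 21.6 ± 3.14 in coronary endothelial (cvEC-like), 6.72 ± 3.70 in mEndo-like and 5.29 ± 2.12 CPM in *Tcf21* fibroblast-like cells. Every library of the higher class was above every library of the next for each step down to mEndo-like cells, which overlapped with *Tcf21* fibroblast-like cells.

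In mEndo-like cells *Msx1* was at 2.93 and 4.83 CPM in the controls and at 7.70 and 11.4 CPM in *Ets1* eKO, from 20, 25, 49 and 90 UMIs. Both *Ets1* eKO libraries were above both controls. The log2 change was 1.39 ± 0.33 (SE), 2.63-fold, with an adjusted p of 0.0469 by edgeR's quasi-likelihood test over all genes tested. The call is close to the threshold: over 13 alternatives the log2 change stayed between 1.03 and 1.80 and the adjusted p ranged from 6.6e-05 to 0.217, with 8 of 13 under 0.05. It was lost without control replicate 1 (adjusted p = 0.217), without *Ets1* eKO replicate 2 (0.188), with DESeq2 (0.0766), with a stricter cell filter (0.0595) and when doublets were kept (0.159).

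*Msx1* was also compared within the sub-clusters of mEndo-like cells. These divide the 20 and 25 control UMIs and the 49 and 90 *Ets1* eKO UMIs of the class, so each value rests on few UMIs. Both *Ets1* eKO libraries were above both controls in 3 of 4 sub-clusters: *Glis3*-led cells at 2.94 and 6.03 against 8.05 and 10.5 CPM, proliferating *Nusap1*-led cells at 5.09 and 5.76 against 11.7 and 13.1 CPM, and *Cyp17a1*-led cells at 3.40 and 1.12 against 6.42 and 10.9 CPM. In *Kcnd2*-led cells the groups overlapped, with 1.15 and 4.82 against 3.19 and 10.3 CPM. The *Nusap1*-led cells, which had the highest mean *Msx1* level, made up 13.8% and 17.9% of the class in the control libraries against 22.7% and 25.3% with *Ets1* eKO. The log2 ratio of its plain CPM means was 1.30, and with sub-clusters at fixed shares it was 1.24.

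The share of mEndo-like cells with an *Msx1* UMI was low in every library. At 2000 UMIs per cell, 9 of 755 and 7 of 526 mEndo-like control cells had an *Msx1* UMI (1.19%, exact 95% interval 0.547% to 2.25%, and 1.33%, 0.537% to 2.72%). In *Ets1* eKO these were 13 of 710 and 34 of 1430 cells (1.83%, 0.978% to 3.11%, and 2.38%, 1.65% to 3.31%). Both *Ets1* eKO shares were above both controls, but the intervals overlap, and they cover counting error only. Thinning left out 4 and 0 shallower control cells and 4 and 49 *Ets1* eKO cells. In cardiomyocyte-like cells, which should lack the gene, the share was at most 0.0867% at the same depth. Without thinning the shares in mEndo-like cells were 2.64% and 4.37% against 5.32% and 5.21%, at median depths of 7457, 8224.5, 7674.5 and 4523 UMIs.

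Markers of other cells also differed between the groups in mEndo-like cells. The summed level of 8 mesenchymal markers was 585 and 532 CPM in the control libraries against 925 and 837 CPM with *Ets1* eKO, with 5 of 8 higher in both *Ets1* eKO libraries. The 6 *Tcf21* fibroblast markers summed to 23.8 and 17.2 against 103 and 92.2 CPM, with 4 of 6 higher. The 9 cushion mesenchyme markers summed to 33.6 and 43.8 against 56.3 and 47.9 CPM, with 2 of 9 higher in both *Ets1* eKO libraries, and the 6 mEndo markers to 3910 and 3865 against 3124 and 2941 CPM, with 5 of 6 lower. The 6 coronary endothelial (cvEC) markers summed to 84.3 and 74.0 against 131 and 174 CPM, with 3 of 6 higher and 3 of 6 lower in both *Ets1* eKO libraries. The 8 cardiomyocyte markers summed to 868 and 523 against 882 and 1133 CPM, with 4 of 8 higher. The 7 arterial wall and mural cell markers summed to 58.1 and 39.8 against 71.3 and 71.5 CPM, with 3 of 7 higher and 1 lower. Erythroid markers were also above the controls (209 and 77.6 against 211 and 257 CPM, 3 of 8 higher), and immune markers (44.7 and 41.7 against 29.9 and 35.7 CPM, 2 of 8 lower and 2 higher) and vEndo markers (215 and 229 against 207 and 181 CPM, 1 of 6 lower and 1 higher) were below them. Of all genes tested in mEndo-like cells, 51.9% separated between the groups in either direction. None of the lists given above had a gene at 0 in every library, whereas 1 of the 6 glial or neural crest markers was. The part of these markers in the *Msx1* result was not tested.

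In vEndo-like cells *Msx1* did not pass the test, with 39.1 and 39.9 CPM in the control libraries against 33.1 and 36.4 CPM with *Ets1* eKO (log2 change -0.15 ± 0.20 SE, adjusted p = 0.834). The *Ets1* eKO libraries were slightly below the controls, without overlap. Without the *Fbln5*-led cluster they overlapped, at 42.4 and 48.0 against 40.6 and 43.5 CPM (-0.0459 ± 0.22 SE, adjusted p = 0.953). Among sub-clusters *Msx1* was highest in *Lsamp*-led cells, at 56.5 and 69.6 against 63.5 and 57.4 CPM, and the *Fam155a*-led (16.1 and 10.5 against 3.85 and 22.6 CPM) and *Fbln5*-led cells (23.9 and 19.3 against 14.6 and 17.5 CPM) were lower. The difference between the *Ets1* eKO effects of the classes, vEndo-like minus mEndo-like, was tested in 1 model over both and came to -1.54 ± 0.34 (SE, log2), with an adjusted p of 0.021 over 12575 genes, of which 1.53% were called. It was the only one of the 8 genes tested there that was called by edgeR with the reported settings (*Cdh11* was called when cells were classed by their own markers), and 4 had an unadjusted p under 0.05, beside 11.4% of all genes. These 4 include *Snai1*, which passed the filter there only through vEndo-like libraries, where it was higher. Without the *Fbln5*-led cluster the *Msx1* difference was -1.44 ± 0.34 (SE, adjusted p = 0.0254). The call was lost without control replicate 1 (-1.14, adjusted p = 0.12) and without *Ets1* eKO replicate 2 (-1.30, 0.161), and over 7 alternatives the adjusted p ranged from 2.8e-04 to 0.161.

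The *Msx1* level in cushion mesenchyme-like cells was 68.2 and 67.2 CPM in the control libraries against 80.2 and 82.2 CPM with *Ets1* eKO. The groups did not overlap, yet the change of 0.34 ± 0.12 (SE, log2) did not pass the adjustment (unadjusted p = 0.0163, adjusted p = 0.279, edgeR). In 2 of 6 sub-clusters both *Ets1* eKO libraries were above both controls. *Abi3bp*-led cells had 67.9 and 51.7 against 102 and 96.0 CPM. The small *Lrp1b*-led sub-cluster of 122 cells had 0.00 and 4.88 against 69.5 and 78.1 CPM. Its values rest on 25 and 66 control cells and on 11 and 20 *Ets1* eKO cells. *Asic2*-led cells differed the other way without overlap, at 80.9 and 61.7 against 39.2 and 55.4 CPM. For *Tcf21* fibroblast-like cells, at 2.54 and 7.71 against 5.33 and 5.59 CPM, the groups overlapped.

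*Msx2* (ENSMUSG00000021469, chr13:53466884-53473074, minus strand), the close relative of *Msx1*, was measured in cushion mesenchyme-like cells at 8.32 and 7.71 CPM in the control libraries against 4.57 and 13.4 CPM with *Ets1* eKO. The *Ets1* eKO libraries lay on either side of the controls (log2 change 0.19 ± 0.40 SE, adjusted p = 0.879). It had 0 UMIs in vEndo-like and epicardial-like cells of all 4 libraries, 1 in mEndo-like and 4 in *Tcf21* fibroblast-like cells, so it was not tested there. In vEndo-like controls a count of 0 allows a level of up to 0.754 CPM. Cardiomyocyte-like cells had 1.93 ± 0.599 CPM (SD, n = 4).

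**Figure D3:**
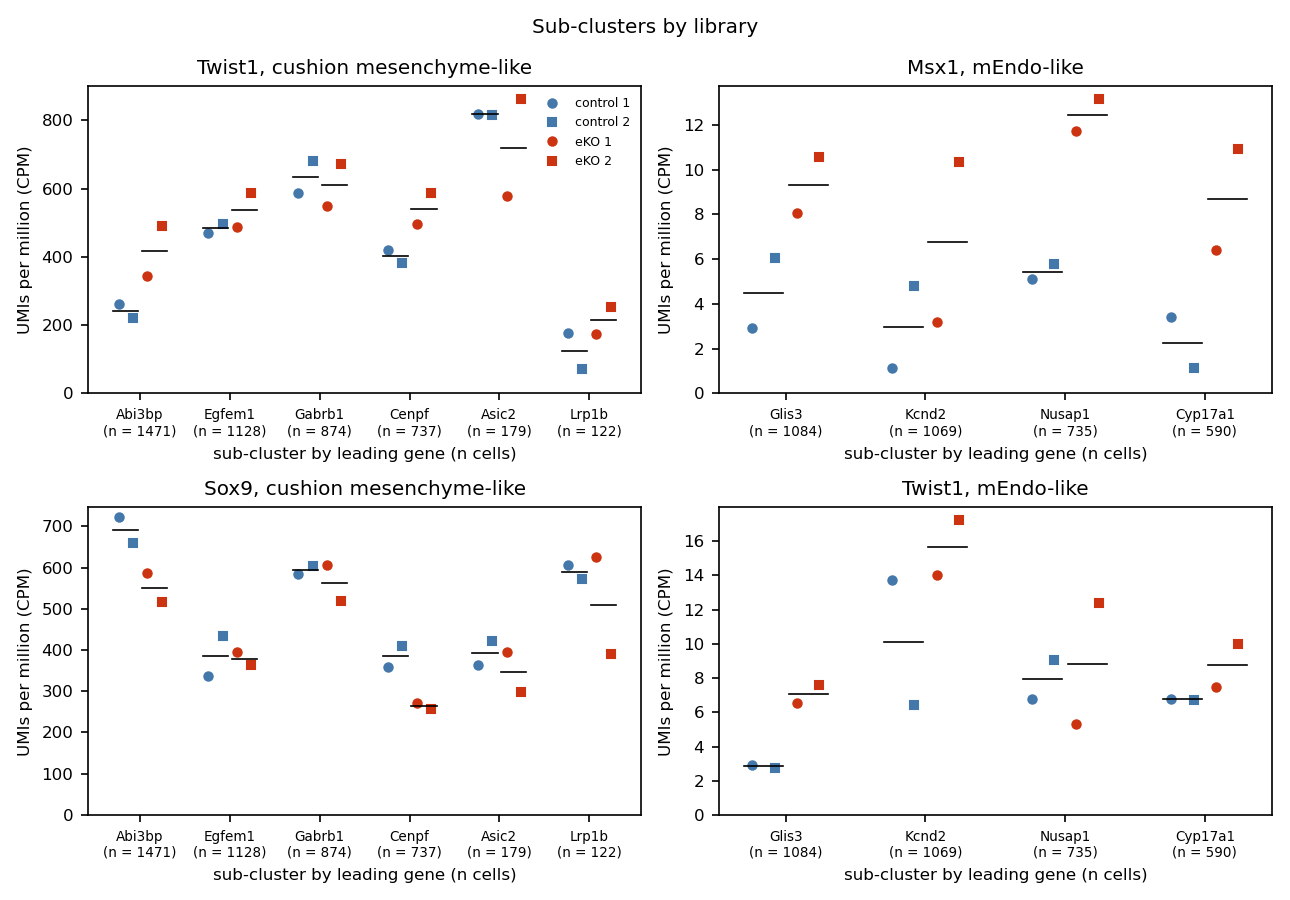
*Twist1* and *Sox9* in the 6 sub-clusters of cushion mesenchyme-like cells and *Msx1* and *Twist1* in the 4 sub-clusters of mEndo-like cells, in CPM by library. Sub-clusters are named by their leading gene with the number of cells, marks are libraries as in the legend and bars are group means. *Msx1* is higher in both *Ets1* eKO libraries in 3 of 4 mEndo-like sub-clusters, and *Twist1* in 2 of 6 cushion mesenchyme-like ones.

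*Cdh11* (ENSMUSG00000031673, chr8:102632095-102785642, minus strand) encodes a type II cadherin known from mesenchymal cells, and overlaps short unnamed transcripts on its own strand in the annotation. It was highest in the lining layers, at 1111 ± 166 CPM (SD, n = 4) in mEndo-like and 958 ± 103 CPM in epicardial-like cells, which overlapped. vEndo-like (404 ± 14.3) and cushion mesenchyme-like cells (384 ± 12.9 CPM) overlapped as well, but without the *Fbln5*-led cluster every vEndo-like library (423 ± 8.31 CPM) was above every cushion mesenchyme-like one, and *Tcf21* fibroblast-like cells were lower at 267 ± 17.2 CPM. cvEC-like cells had 11.8 ± 3.11 CPM, so that *Cdh11* set endocardial-like apart from coronary endothelial-like cells.

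In mEndo-like cells *Cdh11* was at 1300.5 and 1167 CPM in the control libraries against 1069 and 907 CPM with *Ets1* eKO, and in epicardial-like cells at 1036 and 1051 against 908 and 836 CPM. The groups did not overlap in these classes, and neither change passed the test (-0.27 ± 0.16 SE, log2, adjusted p = 0.351, and -0.19 ± 0.17 SE, adjusted p = 0.836, edgeR). In mEndo-like cells this held in each of the 4 sub-clusters. In vEndo-like cells, at 406 and 409 against 416 and 383 CPM, the groups overlapped (0.01 ± 0.15 SE, adjusted p = 0.989). They did not when the *Fbln5*-led cluster was left out, at 416 and 417 against 434 and 427 CPM, and the change did not pass the test (0.10 ± 0.15 SE, adjusted p = 0.821). The level of *Cdh11* in cushion mesenchyme-like cells was 376 and 370.2 CPM in the control libraries against 396 and 394 CPM with *Ets1* eKO (0.16 ± 0.13 SE, adjusted p = 0.645).

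**Figure D4:**
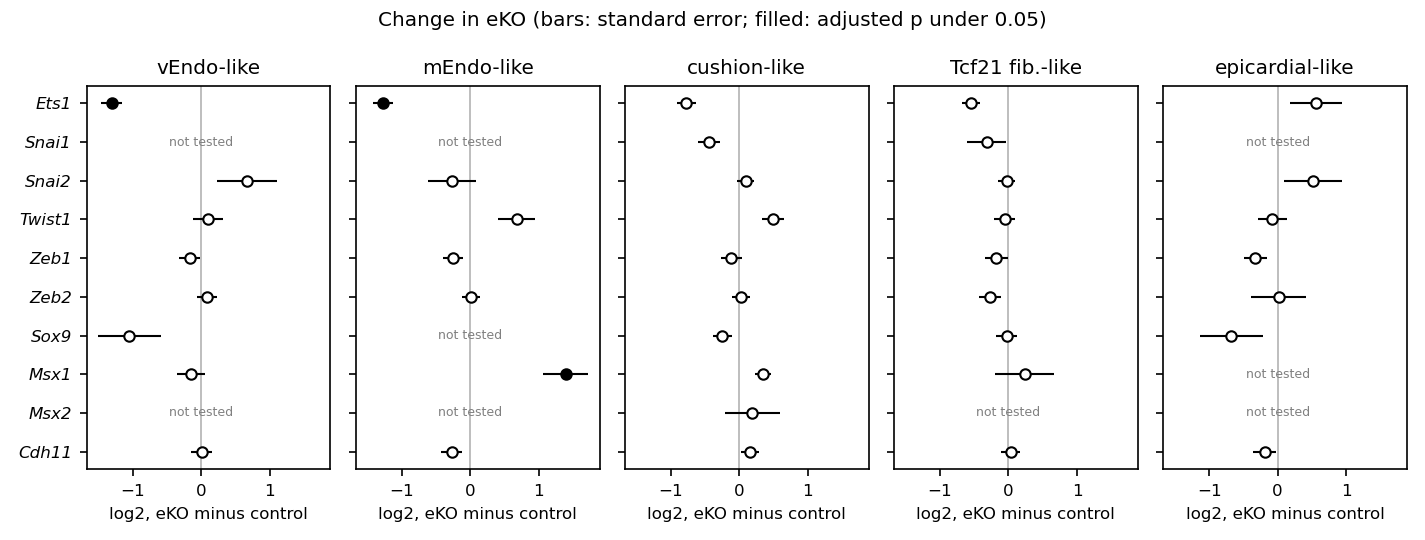
Log2 change of each gene, *Ets1* eKO minus control, in 5 classes, with *Ets1* on top. Points are edgeR estimates, bars their standard errors and filled points an adjusted p under 0.05. Of the 9 genes, *Msx1* in mEndo-like cells (1.39) is filled, and *Ets1* is filled in vEndo-like and mEndo-like cells.

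The other genes of the pathway were taken from 11 lists with 92 genes in all: relatives of the 9, basic helix-loop-helix partners, TGF-beta and BMP ligands and receptors, Smads, Notch, endocardial and valve factors, mesenchymal products, endothelial junctions, Sox9 partners and cadherins. In mEndo-like cells 73 were tested, of which 1 rose and 5 fell, beside 3.41% of all genes called in either direction. *Heyl* is set aside from the genes that rose, because it passed the filter on low counts only through the *Ets1* eKO libraries, where it was higher. It is still among the 73 and in the 3.41%. The lists were chosen with earlier results of these data known, so their counts here and below are a description. Of 82 tested in cushion mesenchyme-like cells, 1 fell, beside 0.304% of all genes called. None of 69 in vEndo-like, 78 in *Tcf21* fibroblast-like or 58 in epicardial-like cells was called, beside 0.371%, 0.0% and 0.0301% of all genes. The median log2 change of the tested genes was -0.07 in mEndo-like, -0.10 in cushion mesenchyme-like and -0.12 in each of the other 3 classes, against medians of at most 0.02 over all genes tested.

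The pathway genes that fell in mEndo-like cells came from the lists of TGF-beta and BMP receptors, Smads, endocardial and valve factors and cadherins. *Acvrl1*, a BMP receptor of endothelium, was at 7.77 and 9.66 CPM in the control libraries against 3.14 and 3.43 CPM with *Ets1* eKO (log2 change -1.34 ± 0.29 SE, adjusted p = 0.0337). *Smad6*, an inhibitor of BMP signals that they induce, was at 139 and 115 against 70.2 and 56.1 CPM (-0.96 ± 0.15 SE, adjusted p = 0.00547). *Tgfbr3*, a co-receptor of TGF-beta 2 in cushion formation, was at 395 and 406 against 257 and 269 CPM (-0.56 ± 0.13 SE, adjusted p = 0.0477). Of the genes tested in these lists, 2 of 8 receptors, 1 of 8 Smads and 1 of 7 endocardial and valve factors fell. Of 3 cadherins, 1 fell and 1 rose. Over all genes, 3.41% were called in either direction. In the same cells the 6 mEndo markers were lower in *Ets1* eKO (3910 and 3865 against 3124 and 2941 CPM), and the mesenchymal and *Tcf21* fibroblast marker sums were higher, as given for *Msx1*. The part of these markers in the changes of the pathway genes was not tested.

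*Nfatc1*, which keeps valve endocardium endothelial and is also among the markers used to name vEndo-like cells, was at 120.4 and 126 CPM in mEndo-like controls and 83.1 and 54.3 CPM in *Ets1* eKO (-0.80 ± 0.18 SE, adjusted p = 0.0352). *Cdh4* was at 67.8 and 68.9 against 14.5 and 16.0 CPM (-2.11 ± 0.16 SE, adjusted p = 4.1e-05). The gene that rose was *Cdh13*, from 83.9 and 88.5 to 159 and 126 CPM (0.77 ± 0.14 SE, adjusted p = 0.0151). Of these 6 genes, *Cdh4* and *Smad6* were called in all 13 alternatives and the others in 7 to 11 of them. *Heyl*, a Notch target, was at 1.32 and 0.386 against 5.03 and 3.68 CPM, on 9 and 2 against 32 and 29 UMIs, which is given as a description.

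*Bmp4*, a BMP ligand of the outflow tract, fell in cushion mesenchyme-like cells from 46.2 and 59.0 CPM in controls to 21.3 and 17.8 CPM in *Ets1* eKO (-1.34 ± 0.17 SE, log2, adjusted p = 0.0198). The call was lost when doublets were kept (adjusted p = 0.0591), when cells were classed by their own markers (0.0552) and without correction across libraries (-0.61, 0.369), where an *Abi3bp*-led cluster was also left out of the class, and the adjusted p over 12 alternatives ranged from 8.7e-13 to 0.369. In the same cells the 7 arterial wall and mural cell markers summed to 1388 and 1386 CPM in the control libraries against 895 and 937 CPM with *Ets1* eKO, and *Abi3bp*-led cells were a smaller share of the class, as given for *Twist1*. Their part in the *Bmp4* change was not tested. *Hand1* was at 4.10 and 12.0 CPM in the control libraries against 0.507 and 1.32 CPM with *Ets1* eKO (-3.11 ± 0.67 SE, adjusted p = 0.109, given as a description). It passed the filter only through the controls, where it was higher, and it was called in 5 of 11 alternatives, with adjusted p from 7.3e-12 to 0.137. No junction gene among the 5 tested there, and no mesenchymal product among the 11, was called.

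Effects that differed between the endocardial classes, vEndo-like minus mEndo-like, passed for 5 of 76 pathway genes, beside 1.53% of all genes tested. The difference was positive for *Gata4* (0.95 ± 0.15 SE, log2, adjusted p = 0.00118), a cardiac GATA factor, and *Nfatc1* (0.81 ± 0.15 SE, adjusted p = 0.00529). It was negative for *Sox6* (-1.12 ± 0.19 SE, adjusted p = 0.00191) and *Sox5* (-0.80 ± 0.16 SE, adjusted p = 0.0115), partners of Sox9 on cartilage genes, and for *Tcf4* (-0.67 ± 0.12 SE, adjusted p = 0.00595), a partner of Twist1. *Gata4*, for example, was at 223 and 247 against 366 and 283 CPM in the vEndo-like class, while mEndo-like cells had 171 and 141 against 111 and 107 CPM. In the *Fbln5*-led cluster *Gata4* was at 244 and 234 against 534 and 348 CPM and in the other vEndo-like cells at 219 and 252 against 298 and 259 CPM, and without that cluster its difference was 0.75 (adjusted p = 0.00464). *Gata4* and *Sox6* were called in all 7 alternatives. Without *Ets1* eKO replicate 2 the call was lost for *Nfatc1* (adjusted p = 0.182), *Sox5* (0.204) and *Tcf4* (0.14), and with cells classed by their own markers for *Sox5* (0.0898) and *Tcf4* (0.0818). *Sox5* also lost it without the *Fbln5*-led cluster (0.0508).

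Between cushion mesenchyme-like and *Tcf21* fibroblast-like cells the effect differed for 7 of 84 pathway genes, beside 0.801% of all genes tested. It was higher in cushion mesenchyme-like cells for *Has2* (0.86 ± 0.15 SE, log2, adjusted p = 0.015), the hyaluronan synthase of cushion jelly, and *Vcan* (0.41 ± 0.09 SE, adjusted p = 0.0467), its proteoglycan partner. *Has2* was at 198 and 165 against 199 and 129 CPM in cushion mesenchyme-like cells and at 48.7 and 56.1 against 32.8 and 18.9 CPM in *Tcf21* fibroblast-like cells. It was lower for the ligands *Bmp4* (-1.41), *Tgfb2* (-0.70) and *Bmp6* (-0.63) and for the contractile genes *Tagln* (-0.93) and *Acta2* (-0.78), with adjusted p-values from 8.1e-04 (*Acta2*) to 0.0473 (*Bmp6*). Only *Acta2* was called in all 6 alternatives. Without *Ets1* eKO replicate 1 the call was lost for *Has2* (adjusted p = 0.232), *Tagln* (0.135), *Tgfb2* (0.103), *Vcan* (0.211) and *Bmp6* (0.273), and without *Ets1* eKO replicate 2 for *Vcan* (0.0887) and *Bmp6* (0.249). *Vcan* also lost it without control replicate 2 (0.0568) and *Bmp6* without control replicate 1 (0.0535). With cells classed by their own markers it was lost for *Vcan* (0.0926), *Bmp6* (0.725) and *Bmp4* (0.13). *Acta2* and *Tagln* are also in the arterial wall marker list, whose sum was lower in *Ets1* eKO in cushion mesenchyme-like cells. In *Tcf21* fibroblast-like cells the sum was higher, at 630 and 625 CPM in the control libraries against 805 and 880 CPM with *Ets1* eKO. There 4 of the 7 markers were higher and 1 lower in both *Ets1* eKO libraries. The part of these markers in the differences between the classes was not tested.

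Other pathway genes with a large change in a class did not pass the test. In vEndo-like cells *Bmp6*, a BMP ligand, was at 95.5 and 171 CPM in the control libraries against 64.7 and 44.2 CPM with *Ets1* eKO (-1.24 ± 0.26 SE, log2, adjusted p = 0.0821), and it passed in 9 of 14 alternatives. Without the *Fbln5*-led cluster it was at 36.1 and 47.3 against 21.4 and 43.5 CPM, which overlap (-0.31 ± 0.29 SE, adjusted p = 0.689). In the whole vEndo-like class *S100a4* (-1.30) and the Notch ligand *Dll4* (-0.90) had adjusted p-values of 0.253 and 0.517, and without that cluster *S100a4* was at -0.90 (adjusted p = 0.31). *Prrx2* in mEndo-like cells (1.64, adjusted p = 0.13) and *Cdh4* in cushion mesenchyme-like cells (-1.09, adjusted p = 0.29) did not pass either. In *Tcf21* fibroblast-like cells *Cdh4* (-1.61), *Cdh5* (-0.99, and 0.57 when doublets were kept) and *Has2* (-0.91) had adjusted p-values from 0.319 to 0.684. In epicardial-like cells *Postn* (-1.39, and 0.27 with cells classed by their own markers), *Tgfb1* (0.76) and *Tbx2* (-0.67) had adjusted p-values from 0.66 to 0.778. In alternatives *S100a4* was called in 2 of 14, *Has2* in 4 of 12, and *Cdh4* in *Tcf21* fibroblast-like cells and *Postn* in 1 of 12 each. Of these, *Dll4*, *Prrx2*, *Cdh4* and *Cdh5* in *Tcf21* fibroblast-like cells, and all 3 in epicardial-like cells, had only 1 group with both libraries at the level the filter asks for.

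The genes whose levels ran most like those of the 9 were searched among 11455 genes over 36 sums (9 classes in 4 libraries), on log2(CPM + 1), as a description without a test. The sums share libraries and depth. *Snai1* ran most like *Has2* (Pearson's r = 0.936) and *Sox9* (0.894), *Twist1* like *Unc5c* (0.966) and *Nfix* (0.952), and *Sox9* like *Cacng7* (0.968) and *Eya4* (0.965). *Msx1* ran most like *Fam3c* (0.934) and *Ptprb* (0.871), *Cdh11* like *Mxra8* (0.961) and *Nkain4* (0.95), and *Snai2* like *Copb2* (0.926) and *Dnm3os* (0.925). *Zeb1* ran most like *Srgap1* (0.942) and *Sh3d19* (0.941), *Zeb2* like *Sdc3* (0.892) and *Trps1* (0.866), and *Msx2* like *Aspscr1* (0.91) and *Tmem132c* (0.908). Among the 9 themselves r was highest between *Snai1* and *Sox9* (0.894) and lowest between *Zeb1* and *Zeb2* (-0.14).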

How the data were processed

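The authors made UMI counts per gene and cell with Cell Ranger 7.1.0 on mm10 (the submitters' processing notes, which also name Seurat 4.3.0) from Chromium 3' v3.1 libraries, and deposited 1 count matrix for each of 4 libraries. Whether intronic reads were counted is not given in the sources used here, and this would weigh on long genes such as *Zeb1*, *Zeb2* and *Cdh11*.

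A cell was kept if it had 200 to 7000 genes and no more than 20% of UMIs from mitochondrial, 35% from ribosomal and 2% from haemoglobin genes (38003 of 45551 barcodes after doublet removal). Of the barcodes past these filters, 3666 were removed as doublets by their 90 nearest neighbours among 2 simulated doublets per cell, at 0.8% per 1000 cells. Cells were clustered on 30 principal components of 2000 variable genes without the 9 genes, at a Leiden resolution of 1.0. Endothelial and mesenchymal cells were then each clustered again at 0.6, on 20 components of 2000 variable genes picked anew without the 9. Both steps were corrected across libraries in the manner of Harmony and used 20 neighbours (igraph 0.11.9, scikit-learn 1.9.0, numpy 2.4.6, pandas 2.3.3, scipy 1.17.1, Python 3.11.15). Clusters were named from 13 marker lists, requiring 3 or more markers that 10% of the cells expressed. Clusters with low UMI counts and no marker of their list among their leading genes, 1 of 606 cells with too few markers, a *Dlk1*-led endothelial cluster of 894 cells and a *Ttn*-led mesenchymal one of 50 cells stayed unnamed, the last 2 because genes of another list led them.

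Sums of UMIs for each class and library entered edgeR 4.0.16 (TMM scaling, filter by expression, quasi-likelihood test, Benjamini-Hochberg adjustment over all genes tested, threshold 0.05; R 4.3.3). Differences between classes were tested with terms for library, class and class by genotype. The interval of a share is the exact binomial (Clopper-Pearson) one at 95%, and the limit for a count of 0 is 3 counts over the group. The scripts were tested on simulated data. Other settings tried were the removal of the filter on low counts, scaling by the total count, DESeq2 1.42.0, a block for the replicate number, leaving out single libraries, stricter cell filters (1000 genes, 10% mitochondrial), doublets kept, cells classed by their own markers and no correction across libraries. The *Dlk1*-led cluster added, the *Fbln5*-led cluster left out, a crossed pairing and sub-clusters at fixed shares were chosen after seeing the data.

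The 9 genes and all lists were chosen with earlier results of these data known. The genes named are the 9, *Ets1*, pathway genes past the threshold, the 3 pathway genes with the largest change per class, and the 2 genes most like each of the 9 with a mean of at least 5 CPM. Positions are from GENCODE vM21 on GRCm38.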

Additional observations from a re-analysis of the deposited data

Results flagged for a closer look

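The *Ets1* eKO effect on *Msx1* differed between the endocardial classes by the test of that difference: vEndo-like minus mEndo-like was -1.54 ± 0.34 (SE, log2; adjusted p = 0.021, edgeR), with -0.15 in vEndo-like and 1.39 in mEndo-like cells. The effect on *Twist1* differed between cushion mesenchyme-like and *Tcf21* fibroblast-like cells by 0.53 ± 0.12 (SE, log2; adjusted p = 0.0466, edgeR), with 0.49 and -0.05 in each. Both calls were lost when single libraries were left out, as given with the results.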

How the results depend on the processing

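In vEndo-like cells 40 genes were called, against 61 with total count scaling, 297 without the filter on low counts, 8 with doublets kept, 122 with cells classed by their own markers, 99 without the *Fbln5*-led cluster and 131 to 197 with 1 library left out. In mEndo-like cells 432 were called, against 1123 without the filter, 158 with doublets kept and 275 to 1261 with 1 library left out. In cushion mesenchyme-like cells 41 were called, against 112 with DESeq2, 71 with total count scaling, 609 without the filter, 5 with doublets kept, 6 without correction across libraries (with 2824 cells in the class in place of 4511) and 152 to 425 with 1 library left out. In *Tcf21* fibroblast-like cells 0 were called (958 at an unadjusted p under 0.05), against 3 with DESeq2, 154 without the filter, 1 without correction and 1 to 78 with 1 library left out. In epicardial-like cells 3 were called, against 48 without the filter, 12 with doublets kept, 25 to 83 with 1 library left out, and 0 with DESeq2, with own markers and without correction. The differences between classes gave 193 calls for vEndo-like minus mEndo-like (404 without the filter, 170 to 620 with 1 library left out) and 110 for cushion mesenchyme-like minus *Tcf21* fibroblast-like (356 without the filter, 16 to 318). Where a library was left out, the lone library of its group was assumed to vary like the others. The split of calls moved from 217 higher and 215 lower to 196 and 321 with total count scaling in mEndo-like cells, and from 21 and 19 to 12 and 20 with DESeq2 in vEndo-like cells.

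Libraries with the same replicate number did not deviate together (r from -0.12 to 0.03 over the classes). With 2 libraries a group this cannot show whether the numbers mark pairs, and the main fits did not use them as pairs. With the replicate number as a block, 54 genes were called in vEndo-like, 678 in mEndo-like, 61 in cushion mesenchyme-like, 46 in *Tcf21* fibroblast-like and 27 in epicardial-like cells. The crossed pairing in vEndo-like cells gave 171 calls.

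The share of cells with a UMI, *Ets1* eKO minus control at 2000 UMIs, moved for *Msx1* in mEndo-like cells from 0.843 to 1.76 points with all UMIs. In cushion mesenchyme-like cells it moved for *Twist1* from 10.7 to 6.78 at 1000 UMIs and 0.73 with all UMIs, for *Snai1* from -2.51 to -0.55 and -8.24, and for *Sox9* from -6.99 to -3.98 and -10.3.

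The sign turned in 48 of the 558 alternative fits of the 9 genes, in none of which the change passed the threshold before or after. With total count scaling it turned for *Cdh11* in vEndo-like (-0.0277) and *Tcf21* fibroblast-like cells (-0.0488) and for *Zeb2* in mEndo-like (-0.0315), cushion mesenchyme-like (-0.0595) and epicardial-like cells (-0.0578), the last also with DESeq2 (-0.0388), doublets kept (-0.226), own markers (-0.507) and no correction across libraries (-0.281). Without correction it turned in cushion mesenchyme-like cells for *Sox9* (0.13), *Msx2* (-0.127), *Snai2* (-0.126) and *Zeb2* (-0.121), and in *Tcf21* fibroblast-like cells for *Sox9* (0.0571). With own markers it turned for *Twist1* in vEndo-like (-0.14), *Msx1* in *Tcf21* fibroblast-like (-0.399) and *Postn* in epicardial-like cells (0.27), and, in vEndo-like minus mEndo-like, for *Zeb1* (-0.0691) and *Ets1* (0.0152). Without the *Fbln5*-led cluster it turned for *Zeb2* in vEndo-like cells (-0.244) and in vEndo-like minus mEndo-like (-0.28). With doublets kept it turned for *Snai2* in epicardial-like (-0.0601) and *Cdh5* in *Tcf21* fibroblast-like cells (0.57).

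With 1 library left out, ranges spanned 0 in vEndo-like cells for *Cdh11* (-0.0355 to 0.050) and *Twist1* (-0.19 to 0.504), and in mEndo-like cells for *Snai2* (-0.639 to 0.396) and *Zeb2* (-0.023 to 0.0585). In cushion mesenchyme-like cells they did for *Msx2* (-0.718 to 0.808), *Snai2* (-0.0141 to 0.196), *Zeb1* (-0.309 to 0.0471) and *Zeb2* (-0.021 to 0.0642). In *Tcf21* fibroblast-like cells they did for *Cdh11* (-0.0438 to 0.117), *Msx1* (-0.402 to 1.16), *Snai1* (-0.77 to 0.0941), *Snai2* (-0.0629 to 0.0177), *Sox9* (-0.234 to 0.15), *Twist1* (-0.259 to 0.136) and *Zeb1* (-0.40 to 0.00486), and in epicardial-like cells for *Twist1* (-0.277 to 0.13) and *Zeb2* (-0.668 to 1.14). So did the differences vEndo-like minus mEndo-like for *Ets1* (-0.155 to 0.0664) and *Zeb1* (-0.00188 to 0.153), and cushion mesenchyme-like minus *Tcf21* fibroblast-like for *Msx1* (-0.843 to 0.76), *Msx2* (-2.53 to 4.71) and *Snai1* (-0.616 to 0.409). The cause was not tested. Of the other alternative fits of the 9 genes, 498 kept their direction and side of the threshold, 10 lost the call and 2 gained one, both with cells classed by their own markers: *Cdh11* in vEndo-like minus mEndo-like (0.27 to 0.39, adjusted p = 0.0472) and *Msx1* in cushion mesenchyme-like minus *Tcf21* fibroblast-like cells (0.08 to 0.93, adjusted p = 0.0211). With sub-clusters at fixed shares, 30 log2 ratios were compared for genes tested in their class. Each differed from the ratio of the plain CPM means by at most 1 SE of the edgeR change. Of the 30, 3 had the other sign: *Snai2* (0.01 to -0.07) and *Msx2* (0.16 to -0.10) in cushion mesenchyme-like and *Zeb2* in mEndo-like cells (-0.0312 to 0.00577). *Snai1* in vEndo-like cells, where it was not tested, also turned (-0.0743 to 0.0275).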
